A study of Mus musculus with 4 samples.

Results

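One pair of arrays is described here: RNA of colon epithelial cells carrying the genotype label Bmi1ΔIEC (called Bmi1_KO) set against RNA of the same cell type labelled WT. The pair was chosen by genotype label alone, and makes up 2 of the 4 arrays of the series. Each genotype had 1 array, so the differences below have no replicate check and, apart from 1 fit over all 4 arrays, no test. The other 2 arrays carried the labels Mel18ΔIEC (Mel18_KO) and Bmi1ΔIEC Mel18ΔIEC (DKO), Mel18 being the older name of Pcgf2. All mice were C57BL/6, sex-matched and between 6 and 8 weeks old. All 4 groups, WT included, received azoxymethane (10 mg/kg), a colon carcinogen, and 5 days later dextran sulfate sodium (3.5% in the drinking water for 5 days), which damages the colonic lining. Cells were taken on day 12, when the injured lining is being repaired. They were released by shaking pieces of colon in 5 mM EDTA, and no sorting step is described in the labels. The sources used here do not give the Cre driver, the deleted exons or the number of mice behind each array.

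Bmi1 and Mel18 are alternative subunits of Polycomb repressive complex 1, which marks and compacts chromatin and keeps developmental genes and the cell cycle inhibitor locus Cdkn2a silent. In the intestine Bmi1 is known for supporting the self-renewal of crypt progenitors. In the chemically injured colon, an epithelial RNA preparation can also hold RNA of the neutrophils and other white blood cells that enter the damaged crypts. In such a bulk sample, fewer cells of a type and less RNA per cell cannot be told apart.

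The comparison asks which transcripts differed in the injured epithelium when Bmi1 alone was deleted. At a threshold of 1.5-fold, 23 of 33 neutrophil genes and 9 of 24 matrix protease and remodelling genes were higher on Bmi1_KO. In the type I interferon response 22 of 42 genes were lower. Of 13 CXC chemokines 3 were higher, the neutrophil attractants Cxcl2 and Cxcl3 among them, and 2 were lower, among them Cxcl5 (-0.94). Epithelial identity genes, Polycomb subunits, Hox genes and cell cycle inhibitors lay close to WT. A brightness floor kept 12527 genes, those reaching a log2 intensity of 6 on their brightest array. Of these, 69 were at least 2-fold higher on Bmi1_KO (0.551%) and 45 at least 2-fold lower (0.359%). At 1.5-fold, the threshold used for gene lists below, 253 genes were higher (2.02%) and 192 lower (1.53%). The median difference over all genes was -0.02 on the log2 scale. Centring each array on the median of all 35556 probe sets turned the 2-fold split into 44 higher and 52 lower. That median intensity was 72.9 on Bmi1_KO and 69.2 on WT, so this centring lowered every difference. It moved the median over the 12527 genes further below 0 and is no correction of the -0.02. All levels are log2 intensities and all differences are log2 of Bmi1_KO over WT unless another pair is named. Levels are compared between arrays for 1 gene at a time and never between genes.

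**Figure D1:**
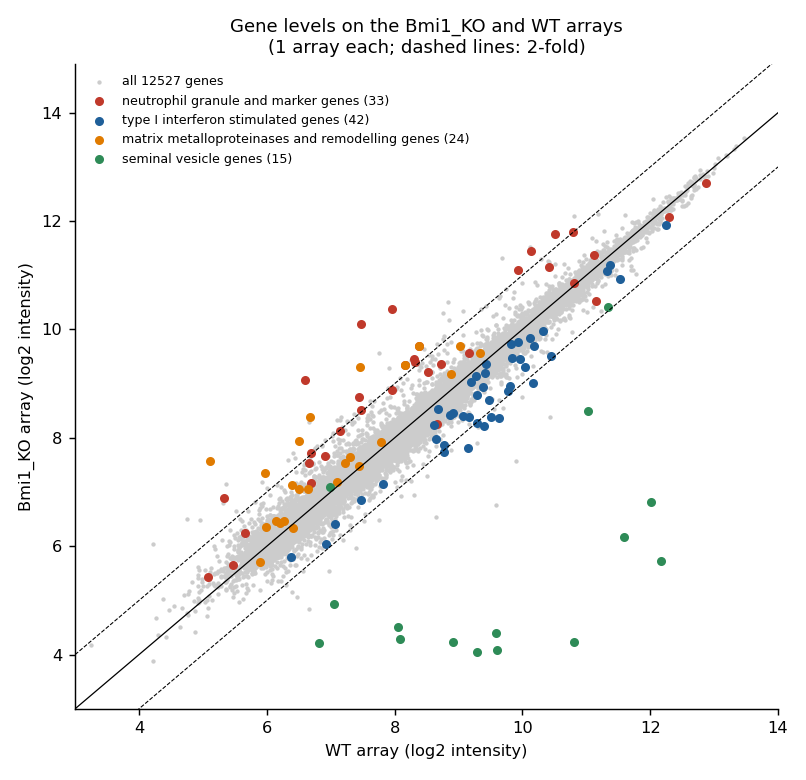
Level of each of 12527 genes on the WT array (horizontal axis) and the Bmi1_KO array (vertical axis), both in log2 intensity, with dashed lines at 2-fold. The 33 neutrophil genes lie mostly above the diagonal, the 42 type I interferon stimulated genes all lie below it, and most seminal vesicle genes lie below the lower dashed line.

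Facts of the arrays that touch these results are as follows. The Bmi1_KO and WT arrays were the most alike of the 6 pairs, with a Pearson correlation of 0.982 across the 12527 genes, while DKO correlated at 0.878 to 0.906 with the others. The defining markers of epithelium were bright on both arrays, with Epcam at 12.05 on Bmi1_KO and 12.14 on WT, and Krt8 at 13.17 and 13.06. The WT array also carried transcripts of the seminal vesicle, a gland of the male tract: Svs4 read 12.17 on WT and 5.73 on Bmi1_KO, with 4.67 on Mel18_KO and 4.16 on DKO. The Y-linked genes Kdm5d, Uty and Eif2s3y were above the floor on all 4 arrays. Uty, for example, read 8.87 on WT and 8.99 on Bmi1_KO, with 8.95 on Mel18_KO and 9.17 on DKO. Of the 45 lower genes, 13 were on a seminal vesicle list and 3 on a skeletal muscle list, and 29 were on neither. Of the 13, 10 passed the floor on WT alone, as did 2 of the 3, so the floor admitted them through the array where they are high. Because WT stands apart in these genes, values with Mel18_KO in place of WT are given beside list results that move with that choice. That comparison keeps the Bmi1_KO array, so a value that appears in both is no independent repeat.

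The deleted gene does not check the label. Bmi1 (probe set 10469514) read 7.25 on WT and 7.43 on Bmi1_KO, with 6.999 on Mel18_KO and 7.64 on DKO, so its level on Bmi1_KO was above that on WT by 0.18. Pcgf2 (probe set 10390458) read 6.96 on WT, 6.72 on Bmi1_KO, 6.84 on Mel18_KO and 6.81 on DKO, a difference of -0.24. Where 4 levels follow each other below without array names, they stand in this order of WT, Bmi1_KO, Mel18_KO and DKO. A probe set summarised over a transcript also reads RNA outside the deleted exons, so neither value tells whether the deletion took place, and directions below rest on the labels.

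Neutrophil genes had the highest median of the gene lists. Of 33 measured neutrophil granule and marker genes (36 were on the array), 23 were at least 1.5-fold higher on Bmi1_KO and 1 was lower. Their median difference was 0.91, beside -0.02 over all genes, and 14 of the 69 genes at least 2-fold higher were on this list. Ngp, which encodes neutrophilic granule protein, read 7.48 on WT and 10.09 on Bmi1_KO, with 4.35 on Mel18_KO and 10.41 on DKO, a difference of 2.62. Chil3, a chitinase-like protein of myeloid cells, read 6.60, 9.07, 3.97 and 9.26, a difference of 2.47. Il1r2, the decoy receptor that captures interleukin-1, read 7.96, 10.38, 6.86 and 10.64, a difference of 2.41. All 3 genes were high on both arrays that carry the Bmi1ΔIEC label, intermediate on WT and lowest on Mel18_KO. The calcium-binding calprotectin subunits S100a8 and S100a9, abundant in the neutrophil cytoplasm, were higher by 1.32 and 1.15, and Stfa2, a cystatin-family protease inhibitor, by 1.56 with 5.33 on WT, under the floor.

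The defining neutrophil receptors moved with the granule genes. Cxcr2, the receptor for the CXC chemokines that attract neutrophils, read 7.96 on WT and 8.88 on Bmi1_KO, and Csf3r, the receptor of granulocyte colony-stimulating factor, 6.90 and 7.67. Members that did not follow were Slfn4 (-0.63), the iron-binding granule protein Ltf (-0.41), Pglyrp1 (-0.22), Ly6g (-0.18) and Cd177 (0.04). Ly6g, Pglyrp1 and Cd177 were bright on all 4 arrays (10.20 or above). Cd177 was lowest on DKO (10.20) and highest on Bmi1_KO (10.85), and Pglyrp1 was lowest on Bmi1_KO (12.07). By array, the list's median level was 6.86 on Mel18_KO, 8.30 on WT, 9.36 on Bmi1_KO and 10.35 on DKO. With Mel18_KO in place of WT the list's median difference was 2.00, with 23 genes at least 1.5-fold higher, beside 3.26% of all genes, and 0 lower, beside 1.24%.

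**Figure D2:**
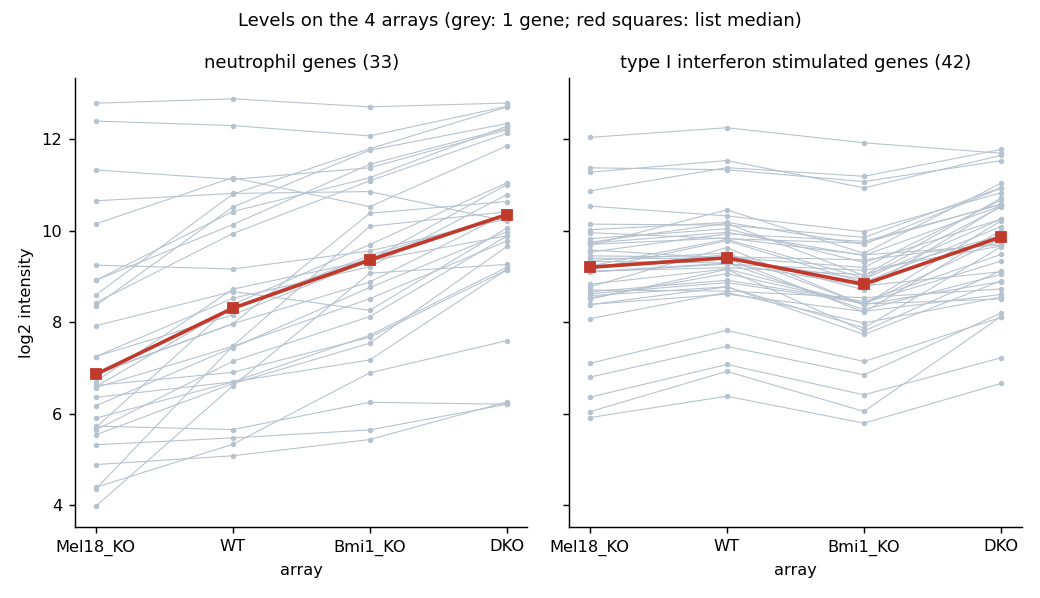
Log2 intensity of each of 33 neutrophil genes (left) and 42 type I interferon stimulated genes (right) on the 4 arrays, grey lines for single genes and red squares for the list median. The neutrophil median climbs from 6.86 on Mel18_KO to 8.30 on WT, 9.36 on Bmi1_KO and 10.35 on DKO, while the interferon median is lowest on Bmi1_KO at 8.83.

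Other white blood cell lists differed less. Of the 33 measured mononuclear phagocyte genes 6 passed 1.5-fold upward and 1 downward, around a median of 0.18 (0.61 with Mel18_KO in place of WT, and 17 genes higher). The higher ones included the leukotriene synthesis protein Alox5ap (1.66), the endosomal bacterial RNA sensor Tlr13 (1.63), the signalling adaptors Tyrobp (1.07) and Fcer1g (0.71) and the Fc receptor Fcgr3 (1.02). All 5 are also expressed by neutrophils, as is known from other work. The defining macrophage markers Csf1r (0.40), Cd68 (0.26) and Adgre1 (-0.37) stayed within 1.5-fold, and Ms4a4c was lower (-0.92). Ptprc, the pan-leukocyte phosphatase CD45, read 7.94 on Bmi1_KO and 7.61 on WT. T and NK cell genes had a median of 0.17, none of the 18 being past 1.5-fold, and among B and plasma cell genes (median 0.22, or -0.30 with Mel18_KO in place of WT) 2 of 12 were higher. Among 5 measured mast cell and eosinophil genes 3 were higher, the mucosal mast cell proteases Mcpt2 (1.18) and Mcpt1 (1.07) and the histamine-forming enzyme Hdc (0.69), while Cma1 was lower (-0.74). Their median of 0.69 was 0.44 with Mel18_KO in place of WT, with 1 gene higher, and 0.27 without the floor. Kit differed by 0.30, and the other genes of that list on the array, among them Fcer1a, Cpa3, Epx and Prg2, were below the floor on every array.

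Among signals that attract neutrophils, the chemokines divided. Cxcl3 read 7.75 on WT and 9.57 on Bmi1_KO, with 7.54 on Mel18_KO and 10.21 on DKO, a difference of 1.82. Cxcl2 read 9.69, 11.33, 8.37 and 12.10, a difference of 1.64. Both ligate Cxcr2, and both were higher on each Bmi1ΔIEC array than on either of the others. Cxcl1, another ligand of the same receptor encoded in the same gene cluster, differed by 0.24, and Cxcl5, which also binds it, was lower (-0.94). The interferon-inducible ligands of Cxcr3, Cxcl9 (-0.55), Cxcl10 (-0.48) and Cxcl11 (-0.59), were all below WT, and the B cell attractant Cxcl13 was above it (0.60). In all 3 of 13 CXC chemokines were at least 1.5-fold higher and 2 lower, and their median of 0.06 has no settled sign, since it turns under median centring.

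The promoters of the clustered ligands are shown because Cxcl1, Cxcl2 and Cxcl3 carry the same NF-kB-like element yet differed in how far they stood from WT. Each line gives 140 bases before to 20 bases after the RefSeq start (GRCm38.p6), 5′ to 3′ on the gene's strand, with matches to the NF-kB core (GGGA and TTCC with any 2 bases between them) on either strand in capitals. In each gene the capitals hold 2 matches that overlap by all but 1 base, one on each strand. Cxcl3 is at chr5:90785961-90786120, Cxcl1 at chr5:90891105-90891264 and Cxcl2 at chr5:90903759-90903918, all on the plus strand.
Cxcl3: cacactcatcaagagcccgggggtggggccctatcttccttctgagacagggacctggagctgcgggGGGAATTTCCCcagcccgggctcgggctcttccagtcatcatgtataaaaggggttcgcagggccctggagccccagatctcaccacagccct
Cxcl1: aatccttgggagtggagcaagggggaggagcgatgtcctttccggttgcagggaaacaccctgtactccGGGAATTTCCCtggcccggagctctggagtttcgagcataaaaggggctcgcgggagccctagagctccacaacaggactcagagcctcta
Cxcl2: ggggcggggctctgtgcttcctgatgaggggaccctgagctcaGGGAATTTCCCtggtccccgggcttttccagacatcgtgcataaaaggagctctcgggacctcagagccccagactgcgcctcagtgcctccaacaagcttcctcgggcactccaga
Promoter windows of 300 bases were given for 11 CXC chemokine genes, and 4 of them held a match (36.4%), beside 1.63% of all 27025 genes with a window. The element is shared by Cxcl1, whose level differed by 0.24, so a match describes the window and not the difference.

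Among CC chemokines 2 of 14 measured genes were higher and 1 lower, and the median was 0.30 (0.43 with Mel18_KO in place of WT, with 5 higher). Ccl3, an attractant of macrophages and neutrophils, was higher by 1.28 and Ccl22, which attracts regulatory T cells, by 0.83, the latter at 6.00 on Bmi1_KO and 5.17 on WT, near or under the floor. Ccl7, a monocyte attractant, went the other way: it read 8.65 on WT and 6.54 on Bmi1_KO, with 8.37 on Mel18_KO and 7.31 on DKO, a difference of -2.10. Both Bmi1ΔIEC arrays were below both others for this gene. Ccl2, a related attractant that also signals through Ccr2, differed by 0.50.

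Several interleukin-1 genes were higher, ligands and the decoy receptor among them. Il1a, the alarmin form of interleukin-1, read 8.76 on WT and 10.30 on Bmi1_KO, with 7.07 on Mel18_KO and 11.64 on DKO, a difference of 1.54. Il1f9, an epithelial IL-36 ligand, was higher by 0.99, Il1b by 0.74, the inflammasome sensor Nlrp3 by 0.72 and Il18rap, a subunit of the IL-18 receptor, by 0.60. With Il1r2 these make 6 of 16 measured members at least 1.5-fold higher, with a median of 0.33, and 1 was lower, the inflammatory caspase Casp4 (-0.72). Casp1, Il18 and the accessory receptor Il1rap differed by 0.05, -0.37 and -0.11. In the IL-6, IL-22 and IL-17 list 3 of 18 genes were higher, Osm (1.02), Csf3 (0.93) and Il6 (0.64, with 5.02 on Bmi1_KO and 4.38 on WT, both under the floor), and 1 was lower, the oncostatin M receptor Osmr (-0.59). TNF and NF-kB genes had a median of 0.13, with Ptgs2 (0.71) and Birc3 (0.64) higher and Tnfsf9 (-0.74) lower among 26, where 5 were higher with Mel18_KO in place of WT. The neutrophil list's median of 0.91 stands beside these cytokine values, and its part in them was not tested.

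After the neutrophil list, the matrix protease list held the most genes at least 2-fold higher. Of 24 measured matrix metalloproteinase and remodelling genes 9 were at least 1.5-fold higher, 7 of them at least 2-fold, and 0 lower, with a median of 0.36. Mmp3, stromelysin 1, read 5.12 on WT and 7.58 on Bmi1_KO, with 4.93 on Mel18_KO and 7.08 on DKO, a difference of 2.46 that starts from a WT level under the floor. Mmp13, collagenase 3, read 7.46, 9.31, 7.13 and 9.31, a difference of 1.85. Mmp10, stromelysin 2, read 6.67, 8.39, 6.39 and 9.18, a difference of 1.72. Each of these 3 proteases differed by less than 1.5-fold between WT and Mel18_KO and was at least 2-fold higher on both Bmi1ΔIEC arrays. Ngp, Chil3 and Il1r2 were at least 2-fold lower on Mel18_KO than on WT. Ngp (4.35) and Chil3 (3.97) were under the floor on Mel18_KO, and Mmp3 was under it on both WT and Mel18_KO. These comparisons of WT with Mel18_KO are therefore rough. The wound matrix protein Tnc (1.43), the macrophage elastase Mmp12 (1.38) and the neutrophil proteases Mmp8 (1.31) and Mmp9 (1.18), which are also on the neutrophil list, completed the 2-fold set. Matrilysin, Mmp7 (0.73), and tissue plasminogen activator, Plat (0.68), passed 1.5-fold, and the inhibitors Timp2 (-0.07) and Timp3 (0.04) lay at WT levels. With Mel18_KO in place of WT the list's median was 0.66, with 13 genes higher and 0 lower.

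Stromal markers differed by less than these proteases. For fibroblast and muscle genes the median was 0.18 (0.21 with Mel18_KO in place of WT, with 6 higher), and 3 of 27 were higher, the matrix proteins Dcn (1.10) and Fn1 (1.07) and the filament Vim (0.86), and 2 lower, the muscle genes Des (-0.76) and Cnn1 (-0.71). The defining fibroblast markers Col1a1 (0.26), Col1a2 (0.24) and Pdgfra (0.05) stayed within 1.5-fold. For endothelial genes it was 0.24, and 1 of 17 was higher, Cd93 (0.70). Whether these cell types had a part in the protease values was not tested.

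The largest single difference downward outside the seminal vesicle list was St8sia5, a sialyltransferase that builds gangliosides. It read 9.58 on WT and 6.75 on Bmi1_KO, with 8.77 on Mel18_KO and 6.41 on DKO, a difference of -2.83. Both arrays with the Bmi1ΔIEC label were low and both without it were high, with a gap of 2.02 between Bmi1_KO and Mel18_KO. Lbp, which carries bacterial lipopolysaccharide to its receptor, had the same order, at 9.99, 8.75, 9.46 and 8.05 (-1.24). Akr1c18, a progesterone-converting reductase, also did, at 6.97, 5.55, 6.75 and 4.52 (-1.43), and so did Khdc1a (-1.41), but both were under the floor on Bmi1_KO.

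**Figure D3:**
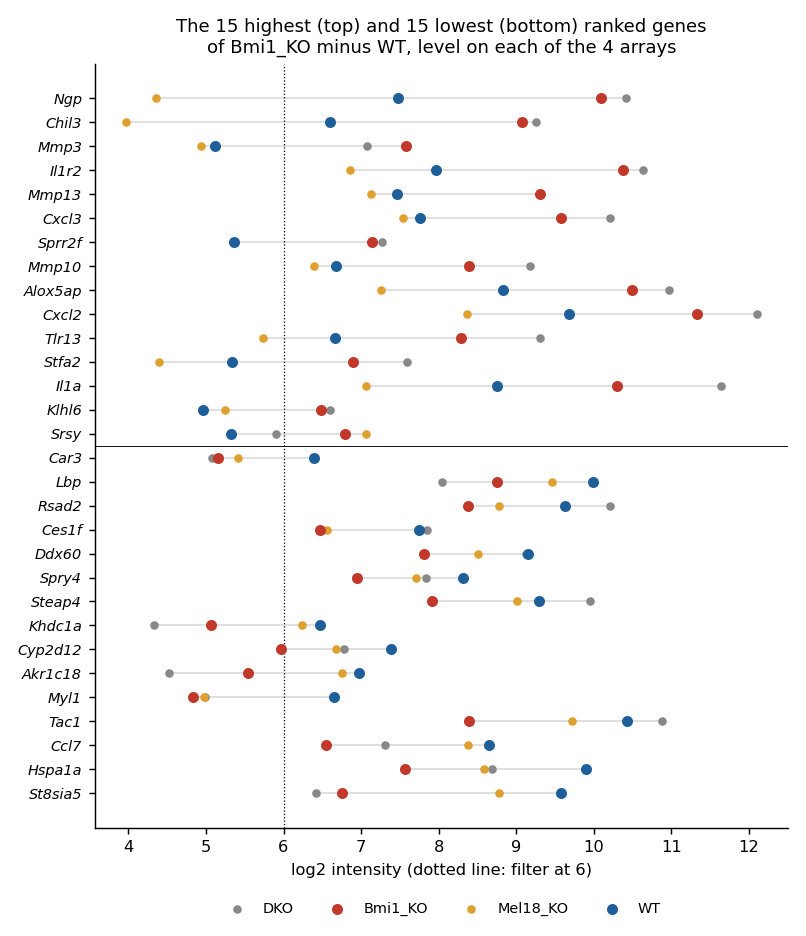
Log2 intensity on each of the 4 arrays for the 15 highest (above the line) and 15 lowest (below it) ranked genes of Bmi1_KO minus WT; the dotted line marks the floor of 6. Il1r2, Cxcl3, Mmp13 and Mmp10 separate the 2 Bmi1ΔIEC arrays from the others upward, and St8sia5, Ccl7 and Lbp separate them downward.

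Several other ranked low genes did not separate the Bmi1ΔIEC arrays from the others, and for some of them WT was the array that stood apart. Tac1, the substance P precursor, read 10.43 on WT and 8.39 on Bmi1_KO, with 9.72 on Mel18_KO and 10.88 on DKO, a difference of -2.04. Steap4, a metalloreductase induced by inflammatory cytokines, read 9.29, 7.91, 9.01 and 9.96 (-1.38). Spry4, a feedback inhibitor of growth factor receptor signalling, read 8.31, 6.95, 7.71 and 7.83 (-1.36). In each of these the Bmi1_KO array was the lowest of the 4. Hspa1a, an inducible Hsp70 chaperone, read 9.89, 7.57, 8.58 and 8.69 (-2.33). Its near-identical copy Hspa1b can share probes with it, so the value is uncertain as to which copy it reads. The carboxylesterase Ces1f (-1.28) read 6.48 on Bmi1_KO and 6.56 on Mel18_KO, and Cyp2d12 (-1.42) was under the floor on Bmi1_KO. The muscle genes Myl1 (-1.82) and Car3 (-1.24) were above the floor on WT alone.

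The remaining ranked genes higher on Bmi1_KO were Sprr2f (1.78), a cornified envelope protein seen in injured epithelium, Klhl6 (1.52), a ubiquitin ligase adaptor of lymphoid cells, and Srsy (1.47). All were under the floor on WT. Srsy belongs to a multicopy family on the Y chromosome whose copies can share probes, so its value is uncertain, and it read higher still on Mel18_KO (7.06) than on Bmi1_KO (6.79).

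Genes of the type I interferon response stood below WT, 22 of them past 1.5-fold. These antiviral genes are switched on when interferon signalling brings transcription factors to interferon-stimulated response elements in their promoters. Of 42 measured members (44 were on the array), 42 had negative differences, 22 of at least 1.5-fold and 7 of at least 2-fold, and the other 20 did not pass 1.5-fold. Their median difference was -0.59, beside -0.02 over all genes. Among all 12527 genes 1.53% were 1.5-fold lower. The median level was 9.41 on WT and 8.83 on Bmi1_KO, with 9.20 on Mel18_KO and 9.86 on DKO. Bmi1_KO was the lowest of the 4 arrays for 33 of the 42 genes, where it was the lowest for 18.4% of all genes. WT was the highest for 8 of them, beside 23.2% of all genes.

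The members past 2-fold did not all have the order of the list medians. Ddx60, a helicase that aids viral RNA sensing, read 9.15 on WT and 7.80 on Bmi1_KO, with 8.50 on Mel18_KO and 9.12 on DKO, a difference of -1.35. Rsad2, viperin, read 9.63, 8.37, 8.77 and 10.22 (-1.26). Ifit1, which binds viral RNA lacking cap methylation, read 10.16, 9.02, 9.75 and 10.71 (-1.14). In these 3 genes Bmi1_KO was the lowest array, Mel18_KO lay between it and WT, and DKO was close to or above WT. Ifit2 (-1.18), the membrane tether Bst2 (-1.13) and the oligoadenylate synthetases Oas3 (-1.04) and Oas2 (-1.02) complete the members past 2-fold. Bmi1_KO was the lowest array for Ifit2 and Bst2 too. But Ifit2 was higher on Mel18_KO (9.58) than on WT (9.39), and Bst2 was lower on DKO (8.885) than on WT (9.51). The smallest differences were in Irf9 (-0.07), Dtx3l (-0.10), Stat2 (-0.14), Adar (-0.14) and Parp9 (-0.15). Interferons and their receptors had a median of -0.01, with 0 of 17 past 1.5-fold either way. With Mel18_KO in place of WT the list's median was -0.26, with 6 genes lower and 0 higher, so the direction was the same and the size smaller.

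Promoters of 5 of the 7 members at least 2-fold lower are shown to let the response element be seen beside these values. Ifit2 and Oas2 had no entry among the promoter windows used here and are not shown. Matches on either strand to the core of the element (GAAA and GAAA with any 2 bases between them) are in capitals. Each stretch runs from 140 bases before to 20 after the RefSeq start (GRCm38.p6). Oas3 is at chr5:120777640-120777799 (minus strand), Ddx60 at chr8:61927947-61928106 (plus), Bst2 at chr8:71537453-71537612 (minus), Rsad2 at chr12:26456433-26456592 (minus) and Ifit1 at chr19:34640749-34640908 (plus).
Oas3: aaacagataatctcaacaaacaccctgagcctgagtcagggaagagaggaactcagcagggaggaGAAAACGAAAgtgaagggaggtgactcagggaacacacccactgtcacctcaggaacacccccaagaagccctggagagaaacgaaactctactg
Ddx60: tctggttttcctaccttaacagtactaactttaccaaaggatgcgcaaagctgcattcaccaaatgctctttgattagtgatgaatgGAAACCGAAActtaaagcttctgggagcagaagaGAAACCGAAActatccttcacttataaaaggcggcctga
Bst2: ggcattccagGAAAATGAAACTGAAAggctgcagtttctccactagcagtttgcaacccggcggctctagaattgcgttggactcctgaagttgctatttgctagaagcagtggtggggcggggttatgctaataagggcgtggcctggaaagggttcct
Rsad2: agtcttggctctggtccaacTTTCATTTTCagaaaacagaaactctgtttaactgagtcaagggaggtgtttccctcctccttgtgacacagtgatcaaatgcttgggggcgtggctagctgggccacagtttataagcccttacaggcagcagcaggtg
Ifit1: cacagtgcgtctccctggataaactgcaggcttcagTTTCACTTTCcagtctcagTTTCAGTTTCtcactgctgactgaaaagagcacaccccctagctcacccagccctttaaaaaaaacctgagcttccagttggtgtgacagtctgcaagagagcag
Ddx60 and Ifit1 carry 2 separate matches, Bst2 carries 2 that overlap, and Oas3 and Rsad2 carry 1. Promoter windows were given for 36 genes of the list, and 17 of them held a match (47.2%), beside 3.99% of all 27025 genes. Within the list a match was found in 8 of 15 measured genes at least 1.5-fold lower and in 6 of 16 other measured genes. The list was chosen for its regulation by interferon, so a high share of matches in it describes the list and not the deletion.

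Genes induced by interferon gamma did not share this order. This list of immunity GTPases and antigen-presentation regulators counted 3 of 25 members higher and 2 lower, around a median of 0.13. Iigp1, a GTPase that attacks the vacuoles of intracellular parasites, read 7.16 on WT and 8.38 on Bmi1_KO, with 8.28 on Mel18_KO and 9.22 on DKO (1.22). Gm4951, a related GTPase (1.13), and Ido1, the tryptophan-degrading enzyme (1.00), had the same order of WT below the 3 deletion arrays. Gbp5, a guanylate-binding protein that promotes inflammasome assembly, was lower (-0.79), as was Cxcl11. For 13 of the 25 genes WT was the lowest of the 4 arrays, beside 16.7% of all genes, and with Mel18_KO in place of WT the median was 0.05 with 0 past 1.5-fold either way. MHC class II genes, which present antigen to helper T cells, were all above WT (7 of 7, median 0.34, beside -0.02 over all genes). H2-Ob (0.93) and H2-DMa (0.72) were past 1.5-fold, and the transactivator Ciita was at 0.34. Here too WT was the lowest array for 7 of 7, and the median was -0.19 with Mel18_KO in place of WT. Schlafen and p200 genes had a median of -0.20 (0.46 with Mel18_KO in place of WT), with Slfn5 (-1.20), Ifi205 (-0.88) and Slfn4 lower among 12.

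**Figure D4:**
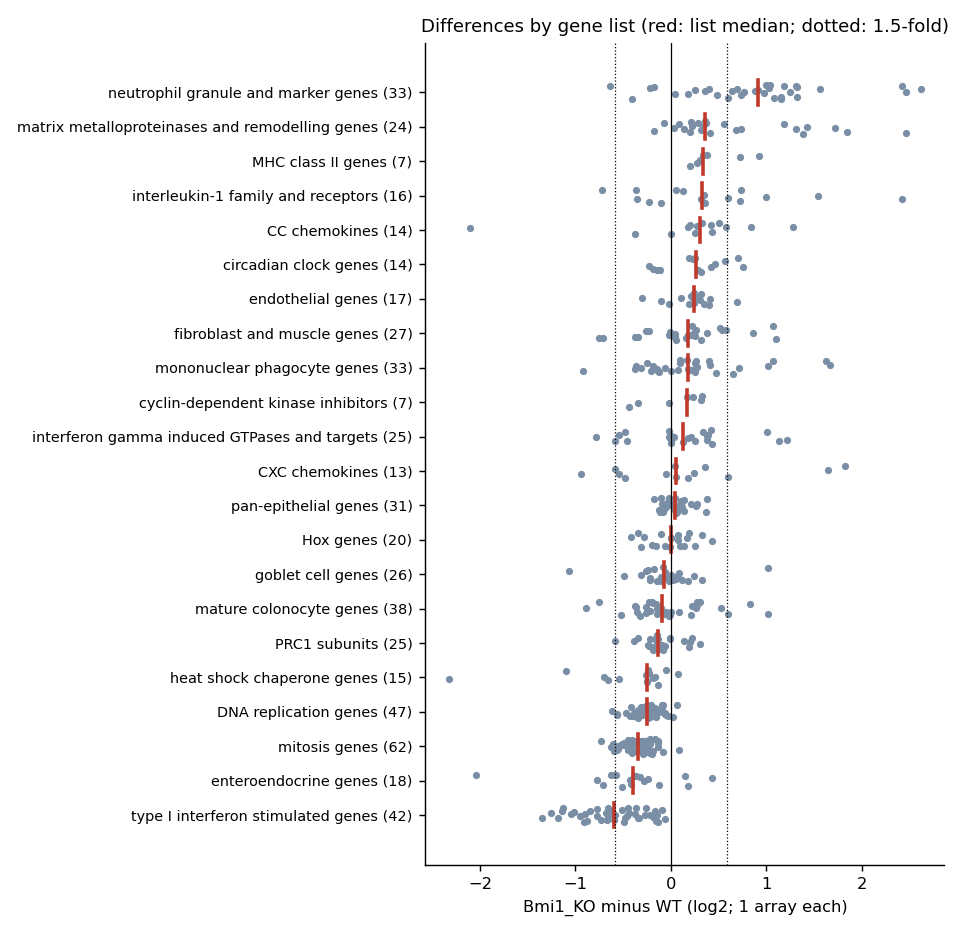
Difference of each measured member of 22 gene lists (dots) and the list median (red bar), as log2 of Bmi1_KO over WT, with dotted lines at 1.5-fold and the number of measured members in brackets. Neutrophil genes (median 0.91) and type I interferon stimulated genes (median -0.59) stand at opposite ends. Pan-epithelial and Hox genes sit around 0, and PRC1 genes slightly below it (median -0.13).

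Genes of the Polycomb machinery and its known targets differed little. Among 25 measured PRC1 subunit genes 0 passed 1.5-fold upward and 1 downward, E2f6, a repressor of a variant complex (7.81 on Bmi1_KO, 8.39 on WT, -0.59). The list's median was -0.13 (-0.02 with Mel18_KO in place of WT), and the catalytic subunits Rnf2 and Ring1 differed by -0.35 and 0.14. Small as they were, 20 of the 25 differences were negative, and WT was the highest array for 11 genes, beside 23.2% of all genes. PRC2 subunits had a median of -0.15 with 0 of 12 past 1.5-fold, 10 differences being negative and WT the highest array for 5 genes. The methyltransferase Ezh2 read 9.44 on Bmi1_KO and 9.68 on WT (-0.24), and Suz12 differed by -0.11 and Eed by -0.16. Cdkn2a, the best known target of Bmi1, read 5.78 on WT and 6.10 on Bmi1_KO, with 5.99 on Mel18_KO and 6.22 on DKO. Its difference of 0.32 is small, all 4 levels lie near the floor, and WT was the lowest. The neighbouring inhibitor Cdkn2b read 8.14, 8.45, 8.61 and 9.07, also 0.32 above WT. The other inhibitors differed by 0.23 (Cdkn1b), 0.17 (Cdkn1c), -0.02 (Cdkn2d), -0.34 (Cdkn3) and -0.44 (Cdkn2c), and 0 of the 7 passed 1.5-fold. Their median was -0.03 with Mel18_KO in place of WT.

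Developmental regulators were largely dim on every array. Of 37 Hox genes on the array 20 passed the floor, and 0 of these were past 1.5-fold. Their differences ran from -0.42 (Hoxd11) to 0.43 (Hoxa11) around a median of 0.00. The posterior genes that mark the colon, Hoxb13 and Hoxd13, read 11.19 and 9.11 on Bmi1_KO against 11.02 and 9.42 on WT. Of 61 developmental transcription factor genes on the array, 27 passed and 0 were past 1.5-fold, with a median of -0.02. The extremes were Gata4 (0.42) and Gata2 (-0.39). Of those 27 genes 8 passed the floor on 1 array only.

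Epithelial identity genes lay close to WT. None of 31 pan-epithelial genes was past 1.5-fold, and their median of 0.04 has no settled sign. Among 38 mature colonocyte genes 3 were higher, the hormone guanylin Guca2a (1.01), Selenbp1 (0.83) and the steroid dehydrogenase Hsd11b2 (0.60), and 2 were lower, the acute phase protein Saa1 (-0.89) and the proton pump Atp12a (-0.75). Guca2a read 10.30 on WT and 11.31 on Bmi1_KO, with 11.32 on Mel18_KO and 11.99 on DKO, so WT was the low array. Goblet cell genes had a median of -0.07 over 26 members, with the mucin Muc2 at -0.10, Tff3 at -0.22 and Clca1 at -0.26. The ribonuclease Ang4 was the low exception (6.12 on Bmi1_KO, 7.19 on WT, -1.07). Crypt base and Wnt target genes had a median of -0.08 over 24, with the stem cell receptor Lgr5 at 7.98 on Bmi1_KO and 7.78 on WT (0.20), Olfm4 higher (0.59, both arrays under the floor) and Phlda1 lower (-0.82).

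Repair and regional lists held single genes past the threshold. In the repair and fetal-like list 6 of 29 genes were higher and 2 lower, with a median of 0.12. Besides Sprr2f, the higher ones were the YAP target Ccn2 (1.38), the keratin Krt23 (1.31), mesothelin Msln (1.27), Sprr2h (0.88) and Krt7 (0.59). Ccn2 read 7.90 on WT and 9.28 on Bmi1_KO, with 7.37 on Mel18_KO and 8.15 on DKO, highest on Bmi1_KO. The basal keratin Krt5 (-0.71) and the EGF receptor ligand Hbegf (-0.67) were lower. Small bowel absorption genes had a median of -0.01 over 20 (-0.19 with Mel18_KO in place of WT, with 5 lower), with the retinol-binding protein Rbp2 (-0.95) and Apob (-0.82) lower and Fabp6 (0.86) higher. Squamous and anorectal genes (median -0.19, or 0.36 with Mel18_KO in place of WT) had 3 of 11 lower, Krt6a (-1.06), Krt5 and Krt10 (-0.60). Krt5 read 8.76 on WT and 8.05 on Bmi1_KO, with 6.36 on Mel18_KO and 5.82 on DKO, so this keratin was highest on the pair described here. Which tissue it came from was not tested. Tuft cell genes had 1 of 9 higher (Alox5, 0.70) and 1 lower (Hpgds, -0.65).

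Enteroendocrine genes were mostly below WT. Of 18 measured members 15 had negative differences, 4 were at least 1.5-fold lower and 0 higher. Their median was -0.40, beside -0.02 over all genes. After Tac1 came the prohormone-processing Cpe (-0.78) and the secretory granule proteins Scg2 (-0.71) and Chgb (-0.62). The hormones Sst (-0.58) and Gcg (-0.43) and the granule protein Chga (-0.42) did not pass 1.5-fold. Neurog3, the factor that starts this lineage, was above WT by 0.43. Bmi1_KO was the lowest of the 4 arrays for 10 of the 18 genes, beside 18.4% of all genes. With Mel18_KO in place of WT the median was -0.09 with 2 genes lower.

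Antimicrobial genes differed in both directions. Reg3b, a lectin that binds gut bacteria, read 6.73 on WT and 7.77 on Bmi1_KO, with 8.33 on Mel18_KO and 13.18 on DKO (1.04), and Reg3g read 7.19, 7.64, 7.52 and 13.14 (0.45). On these genes DKO stands far above the others and WT lowest. Of 24 measured members of the list 6 were higher, among them Lcn2 (0.99) and S100a8, and 2 were lower, Ang4 and Saa1. The oxidant enzymes Nos2 (-0.44), Duoxa2 (-0.36) and Duox2 (-0.30) did not pass 1.5-fold. C-type lectin and Fc receptor genes had 6 of 20 higher and 0 lower, including Clec4d (0.98), Clec5a (0.90) and Fcgr2b (0.81). Against Mel18_KO 15 were higher and 1 lower, and 8 of the 20 are also on lists of cell types. Complement genes had the receptor C5ar1 (0.99) and properdin, Cfp (0.61), higher and factor B, Cfb (-0.68), lower among 13. In the prostaglandin pathway 3 of 17 were higher, Alox5ap, Ptgs2 and Alox5, and Hpgds was lower.

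Proliferation genes were slightly and almost uniformly below WT. Of 62 mitosis genes 61 had negative differences and 4 were at least 1.5-fold lower, Hmmr (-0.74), Ncapg2 (-0.63), Cenpe (-0.61) and Pbk (-0.59), with a median of -0.34. The proliferation marker Mki67 read 11.34 on WT and 10.99 on Bmi1_KO, with 11.06 on Mel18_KO and 9.89 on DKO (-0.35). DNA replication genes had a median of -0.25, with 45 of 47 negative and 1 past 1.5-fold, the polymerase subunit Pola1 (-0.62). Ribosome biogenesis and MYC target genes had a median of -0.22, with 37 of 39 negative and Myc itself at 9.13 on Bmi1_KO and 9.92 on WT (-0.79). The median over all genes was -0.02. WT was the highest of the 4 arrays for 58 mitosis, 39 replication and 33 ribosome biogenesis genes, beside 23.2% of all genes. With Mel18_KO, itself a deletion array, in place of WT the medians were -0.07, -0.04 and 0.03. In that comparison 0 genes were past 1.5-fold in any of the 3 lists. DKO minus Mel18_KO, a pair without WT, had medians of -1.23, -1.12 and -1.05. Whether WT or the deletion arrays stand apart in these lists was not tested.

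Stress and metabolic lists held few genes past the threshold. Of 15 heat shock chaperone genes 4 were lower, Hspa1a, Hsph1 (-1.10), Hspa4l (-0.70) and Dnajb1 (-0.66), with a median of -0.25. Against Mel18_KO it was -0.13 with 2 lower. Hsph1 read 9.30 on WT and 8.20 on Bmi1_KO, with 8.88 on Mel18_KO and 8.37 on DKO. Among circadian clock genes (median 0.27) 2 of 14 were higher, the repressors Nr1d1 (0.75) and Cry2 (0.70), and 0 lower, while Arntl (-0.23) and Clock (-0.19) had negative differences. The clock median was 0.10 with Mel18_KO in place of WT, with 1 gene higher. The time of day at collection is not given here. Of 54 detoxification enzymes 2 were higher, Sult1a1 (1.08) and Cyp2f2 (0.75), and 4 were lower, Ces1f, Ces1g (-1.01), Cyp2c65 (-0.74) and the epoxide hydrolase Ephx1 (-0.68). In the hypoxia and glycolysis list 3 of 31 were higher, Ndrg1 (0.82), Slc2a3 (0.69) and Ankrd37 (0.59), and 1 lower, P4ha1 (-0.80). Among 24 p53 target genes, 47 oxidative phosphorylation genes, 36 cholesterol and fatty acid synthesis genes and 25 PPAR target genes 0 were past 1.5-fold in either direction, as were 0 of 18 claudin and tight junction genes and 0 of 15 MHC class I and proteasome genes. Of 29 unfolded protein response genes and 25 immediate early genes 1 each was lower, the latter being Dusp6 (-0.83), a phosphatase of the ERK pathway.

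Deletion of Bmi1 could also be read beside deleted Mel18, as DKO minus Mel18_KO, a pair of arrays that shares none with Bmi1_KO and WT. That pair lay further apart: at 2-fold, 965 genes were higher (7.7%) and 917 lower (7.32%), and at 1.5-fold 14.1% of genes were higher and 20.8% lower. Of the 69 genes higher on Bmi1_KO than on WT, 54 were also at least 2-fold higher in the second pair, which is 78.3% of the 69 and 5.60% of the 965, and 4 were at least 2-fold lower. Of the 45 lower genes 6 were also lower (13.3% of the 45, 0.654% of the 917) and 8 were at least 2-fold higher. With the seminal vesicle list left out, 32 lower genes remained, of which 6 were also lower (18.75%) and 7 at least 2-fold higher. Over all genes the differences of both pairs correlated at 0.256 (Pearson, 12527 genes of the same 4 arrays, which are not independent replicates). Without the seminal vesicle list the correlation was 0.299 over 12512 genes. The neutrophil list had medians of 0.91 and 3.32 in the pairs, and the matrix protease list 0.36 and 1.83. Il1r2 differed by 2.41 and 3.78, Mmp13 by 1.85 and 2.18, and Mmp10 by 1.72 and 2.78. Ngp (2.62 and 6.06) and Mmp3 (2.46 and 2.15) were higher in both pairs too, but Ngp was under the floor on Mel18_KO and Mmp3 on Mel18_KO and WT, so these sizes are rough. St8sia5 (-2.83 and -2.36), Ccl7 (-2.10 and -1.07), Lbp (-1.24 and -1.41), Akr1c18 (-1.43 and -2.23) and Khdc1a (-1.41 and -1.90) were lower in both. Akr1c18 and Khdc1a were under the floor on Bmi1_KO and DKO, so their sizes are rough too.

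The type I interferon list had medians of opposite sign, -0.59 beside intact Mel18 and 0.76 beside deleted Mel18, where 25 of the 42 stood 1.5-fold or more above Mel18_KO and 0 below it. Rsad2 differed by -1.26 and 1.44, and Trim30a, an interferon-induced regulator, by -0.95 and 1.35. Bst2 (-1.13 and -0.46) and Oas2 (-1.02 and -0.28) were below in both pairs. Enteroendocrine genes likewise had medians of -0.40 and 0.47, and Tac1 differed by -2.04 and 1.15. Mitosis genes had medians of -0.34 and -1.23. With 1 array in each cell of the layout, none of these contrasts between pairs was tested.

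**Figure D5:**
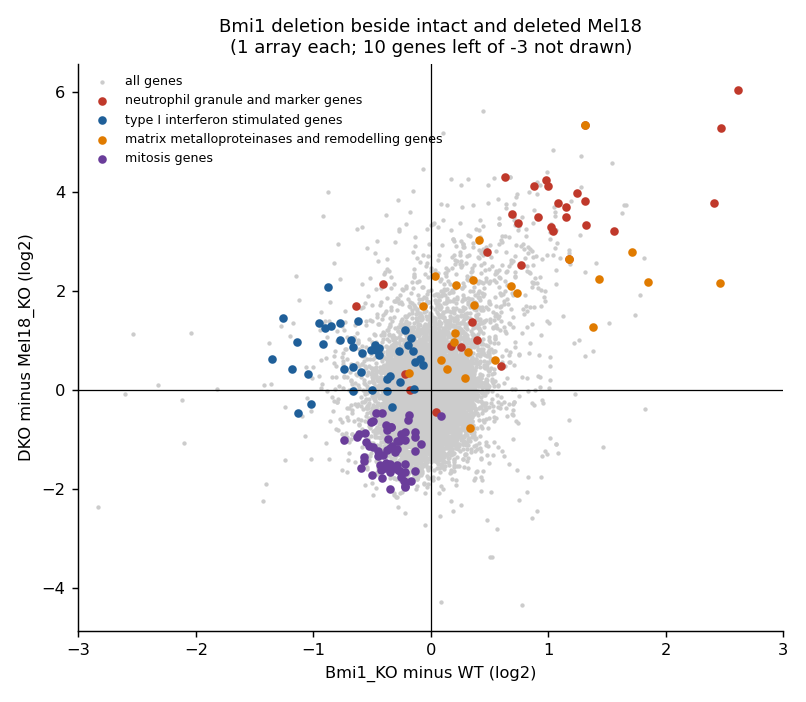
Difference with Bmi1 deletion beside intact Mel18 (horizontal axis, Bmi1_KO minus WT) and beside deleted Mel18 (vertical axis, DKO minus Mel18_KO), in log2, 1 point per gene; 10 genes left of the horizontal range are not drawn. Neutrophil and matrix protease genes lie mostly in the upper right, mitosis genes in the lower left, and type I interferon stimulated genes mostly in the upper left.

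The only fit that leaves a residual degree of freedom tests the mean of both pairs and not Bmi1 deletion alone. In that additive limma model 0 of 12527 genes passed a Benjamini-Hochberg adjusted p of 0.05 (0%), and the smallest adjusted p was 0.849. An unadjusted p under 0.05 was found for 324 genes, fewer than a share of 0.05 of the 12527. The residual of this model is the difference between the pairs, so a gene that moved unequally in them counts as noisy. A gene that misses the threshold is not shown to be equal on the arrays.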

How the data were processed

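RNA of colon epithelial cells was measured on Affymetrix Mouse Gene 1.0 ST arrays, 1 array per genotype, and arrays were grouped by genotype label. The deposited values are linear intensities of probe sets. The authors computed them by RMA in Affymetrix Expression Console, as the submitters' processing notes state. RMA subtracts background, gives all arrays the same distribution by quantiles and summarises the probes of each set, so a difference common to most genes cannot be seen in its output. The log2 of the deposited intensities, which ran from 4.70 to 13738, was taken here. Versions and annotation release of the authors' software are not stated. Intensities are not counts, and precision is limited by having 1 array per genotype.

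Of 35556 probe sets, 21797 had 1 gene symbol in the platform annotation, 1613 had several and 12146 had none listed. The first kind was used, and 21698 of them matched the RefSeq gene table by identifier. The brightest probe set stood for each of 19946 genes, and 12527 reached the floor of 6. Of these, 11489 did so on both Bmi1_KO and WT.

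The main value was the difference of 2 arrays, with no test. The additive model (limma 3.58.1, lmFit and eBayes, R 4.3.3) had 1 residual degree of freedom. It was run on simulated data with purely additive effects and noise set from the spread of Bmi1_KO minus WT (0.191). DKO minus Mel18_KO had a wider spread (0.572), so that run does not show how the model behaves on these arrays. Python 3.11.15, numpy 2.4.6 and pandas 2.3.3 did the rest. Promoters came from RefSeq (GRCm38.p6), 250 bases before to 50 after each start, and both strands were searched.

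The members and the 54 gene lists were chosen with earlier results of these data known, and 2 more lists (skeletal muscle and glucocorticoid-induced genes) were written after the values were seen, as was the count without muscle genes. Named genes were Bmi1 and Pcgf2, the 15 highest and 15 lowest at least 2-fold apart (small RNAs, unnamed models, olfactory, vomeronasal and antigen receptor genes and the seminal vesicle list left out), up to 5 at each end of a list, all members of lists of up to 12, defining cell type markers, and Cdkn2a, Cdkn2b, Lgr5, Mki67, Muc2, Reg3b, Reg3g, Ptprc, Epcam and Svs4. Hoxb13, Hoxd13, Tff3, Clca1, Suz12, Eed, Casp1, Ccl2, Cxcl1 and some other members inside a list's range were named after their values were seen. Alternatives changed the floor, scaling, offset, fold, probe set rule, prior variance and control array.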

Additional observations from a re-analysis of the deposited data

Results flagged for a closer look

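Bmi1 deletion could be read in 2 pairs of arrays, Bmi1_KO minus WT and DKO minus Mel18_KO, and in them 4 ranked genes stood on opposite sides by at least 2-fold each way, and the medians of 2 lists by at least 1.5-fold each way. With 1 array per genotype the difference was not tested. The type I interferon stimulated genes had a median of -0.593 beside intact Mel18 and 0.764 beside deleted Mel18. Rsad2, which belongs to that list, gave -1.26 and 1.44. Tac1, the substance P precursor, gave -2.04 and 1.15, and the carboxylesterase Ces1f gave -1.28 and 1.30. Srsy, a Y-linked gene with many near-identical copies, gave 1.47 and -1.15, with WT under the floor. The mast cell and eosinophil list gave 0.69 and -0.603 over 5 measured genes. Its first value was 0.268 without the floor, 1.07 with a floor of 8 and 0.438 with Mel18_KO in place of WT. Steap4 (-1.38 and 0.95) and Ddx60 (-1.35 and 0.62) stood on opposite sides past 1.5-fold but not past 2-fold in both. Groups of 1 array leave no within-group outlier to look for.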

How the results depend on the processing

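The 69 higher genes became 44 after median centring, 40 with 32 added before log2, 253 at 1.5-fold, 13 at 3-fold and 192 with Mel18_KO in place of WT. Under the other settings this count lay between 58 and 79. The 45 lower genes became 28 where both arrays had to reach 6, 192 at 1.5-fold, 18 at 3-fold, 28 with Mel18_KO in place of WT and 29 without the seminal vesicle and skeletal muscle lists. Under the other settings this count lay between 31 and 52. The cause of the shifts was not tested beyond what each setting does by construction. With Mel18_KO in place of WT, 53 of the 69 and 9 of the 45 remained, both comparisons holding the Bmi1_KO array. Of the list medians under all settings 419 moved by less than the scaled median absolute deviation of all genes (0.191) and 29 moved further. With Mel18_KO in place of WT, 16 of the 56 list medians changed sign, 10 of them by more than that deviation: seminal vesicle genes, whose median passed 1.5-fold (-4.68, now 0.363), B and plasma cell, squamous, MHC class II, Schlafen, cyclin-dependent kinase inhibitor, ribosome biogenesis, sterol synthesis, PPAR target and skeletal muscle genes. Of the values of ranked genes 191 moved by less than that, 46 by more and 1 reversed, Srsy, at -0.27 with Mel18_KO in place of WT. Medians of CXC chemokines, pan-epithelial, Hox, oxidative phosphorylation, sterol synthesis, prostaglandin and MHC class I genes change sign under median centring and those of Hox and claudin genes under loess. Medians of Hox, small bowel, interferon and receptor, IL-6 family, immediate early and developmental factor genes do so under another floor or none. The signs of these medians are not read as directions. The additive limma fit called 0 genes under every setting run. No paired analysis was possible because each genotype had 1 array and the labels carry no replicate numbers. Genes near the floor have little signal over background, and their differences are rough.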

Other observations

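Genes that glucocorticoid hormone induces in many tissues, a list written after their values were seen, had a median of 0.38 on Bmi1_KO against WT. Of 16 measured members 4 were at least 1.5-fold higher and 0 lower: the neutrophil and epithelial siderophore binder Lcn2 (0.99), the hormone receptor co-chaperone Fkbp5 (0.95), the metal-binding protein Mt1 (0.94) and the zinc finger factor Zbtb16 (0.68). Fkbp5 read 8.38 on WT, 9.34 on Bmi1_KO, 9.14 on Mel18_KO and 8.87 on DKO, so WT was its lowest array. With Mel18_KO in place of WT the list's median was 0.18. Per1, both a clock gene and a hormone target, was above WT by 0.46. EGF family ligands and receptors had a median of -0.12 over 10 measured genes, with Hbegf (-0.67) the only one past 1.5-fold, and -0.25 with Mel18_KO in place of WT.

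Transcripts of tissues next to the colon were seen on the pair. Of 19 seminal vesicle genes on the array 15 passed the floor, 10 of them on WT alone, so how many stand highest on WT is largely set by the floor. Svs2 read 12.02 on WT and 6.82 on Bmi1_KO, and Svs5 11.59 and 6.18, while Mel18_KO and DKO read 4.50 or less for both. Of 30 skeletal muscle genes on the array 14 passed the floor, 5 of them on WT alone. Above the floor on both arrays of the pair and at least 1.5-fold lower on Bmi1_KO were Ckm (7.30 on WT, 6.30 on Bmi1_KO) and Tnnt3 (7.53 and 6.60).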
